A study of Oryza sativa with 12 samples.

Results

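The class III peroxidases described here are the 91 rice genes whose name in the authors' comparison tables is prx followed by a number, out of 38978 annotated genes in the count table. They were chosen by name alone. RNA was sequenced from leaves of Pusa Basmati-1, an indica rice variety, sampled 2.5 months after the plants moved to the greenhouse. There were 12 libraries in 6 groups of 2. In the OsPIP2-1 experiment, wild-type leaves (PIP2-1 WT) were set beside leaves overexpressing Myc-tagged OsPIP2-1 from the maize ubiquitin promoter (PIP2-1 OE, ZmUbiquitin::3xMyc-OsPIP2-1) and leaves of a T-DNA-free CRISPR-Cas9 OsPIP2-1 knockout (PIP2-1 KO). The OsPIP2-7 experiment had its own wild type (PIP2-7 WT), a FLAG-tagged overexpressor from the same promoter (PIP2-7 OE, ZmUbiquitin::3xFLAG-OsPIP2-7) and a T-DNA-free OsPIP2-7 knockout (PIP2-7 KO). The maize ubiquitin promoter is active in most tissues, so the overexpression was not limited to one cell type. The labels do not say how many independent lines or plants stand behind a library, and p-values therefore measure only the spread between these libraries.

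Class III peroxidases are plant haem enzymes, mostly secreted into the cell wall or the vacuole. They oxidise phenolic compounds with hydrogen peroxide, cross-link cell wall polymers and help polymerise lignin, and they can also produce reactive oxygen species. In grasses they form a large family with many tandem copies, and members are known for responses to wounding and pathogens. PIP2 proteins are plasma membrane aquaporins, and several of them pass hydrogen peroxide as well as water. The names of most prx genes are catalogue numbers, and no individual role is assigned to them here.

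The libraries held 24636211 to 40666127 counts assigned to genes, and 1 TMM-scaled CPM, the level used below, stood for 26 to 40.5 counts. CPM is a count scaled to the library's total, here adjusted by edgeR's trimmed mean of M values (TMM). The targeted genes were checked first. OsPIP2-1 averaged 132 CPM in PIP2-1 WT, 1900 CPM in PIP2-1 OE and 138 CPM in PIP2-1 KO, and an edited gene can keep its RNA, so this count does not check the knockout. OsPIP2-7 averaged 687 CPM in PIP2-7 WT, 1710 CPM in PIP2-7 OE and 158 CPM in PIP2-7 KO. In the OsPIP2-1 experiment OsPIP2-7 averaged 337 CPM in PIP2-1 WT, 293 CPM in PIP2-1 OE and 962 CPM in PIP2-1 KO. OsPIP2-1 averaged 140, 116 and 151 CPM in PIP2-7 WT, PIP2-7 OE and PIP2-7 KO. The wild types of the experiments differed from each other at 56.6% of the genes tested. The leaf label fitted the markers: 4 matched mesophyll genes summed to between 6440 and 22400 CPM in every library, while 5 root markers summed to at most 12.7 CPM and 5 flower markers to at most 0.654 CPM.

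The prx-named genes were sparsely expressed in leaves. Of the 91 genes, 6 had no count in any library, namely prx8, prx21, prx76, prx85, prx121 and prx127, and 20 more had 1 to 12 counts over all 12 libraries. A mean of at least 1 CPM was reached by 20 members and a mean of at least 10 CPM by 3, which were prx122, prx20 and prx56. A total of 44 members passed the filter on low counts in at least 1 comparison and 47 in none, and a member could pass through the group in which it was high.

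Levels can be compared between genes only per length, as CPM per kb of counted exon. On that scale prx122 (Os09g0471100, chromosome 9, 17932737 to 17935811 on IRGSP-1.0, 3 exons, minus strand) had the highest mean over the libraries, at 16.3 CPM per kb. It was followed by prx20 (Os01g0962700, chromosome 1, 42429502 to 42432547, 2 exons, plus strand) at 11.1 CPM per kb. Next came prx78 (Os06g0306300, chromosome 6, 11559570 to 11560896, a single exon) at 4.79, prx29 (Os02g0240300, chromosome 2, 7948543 to 7949997) at 4.51 and prx109 (Os07g0676900, chromosome 7, 28660188 to 28661792) at 3.90 CPM per kb. The other members of the first 10 were prx116 at 3.67, prx56 at 3.54, prx26 at 3.34, prx117 at 2.17 and prx59 at 1.82 CPM per kb. Counts covered whole annotated genes, so exons and untranslated regions were not resolved.

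**Figure D1:**
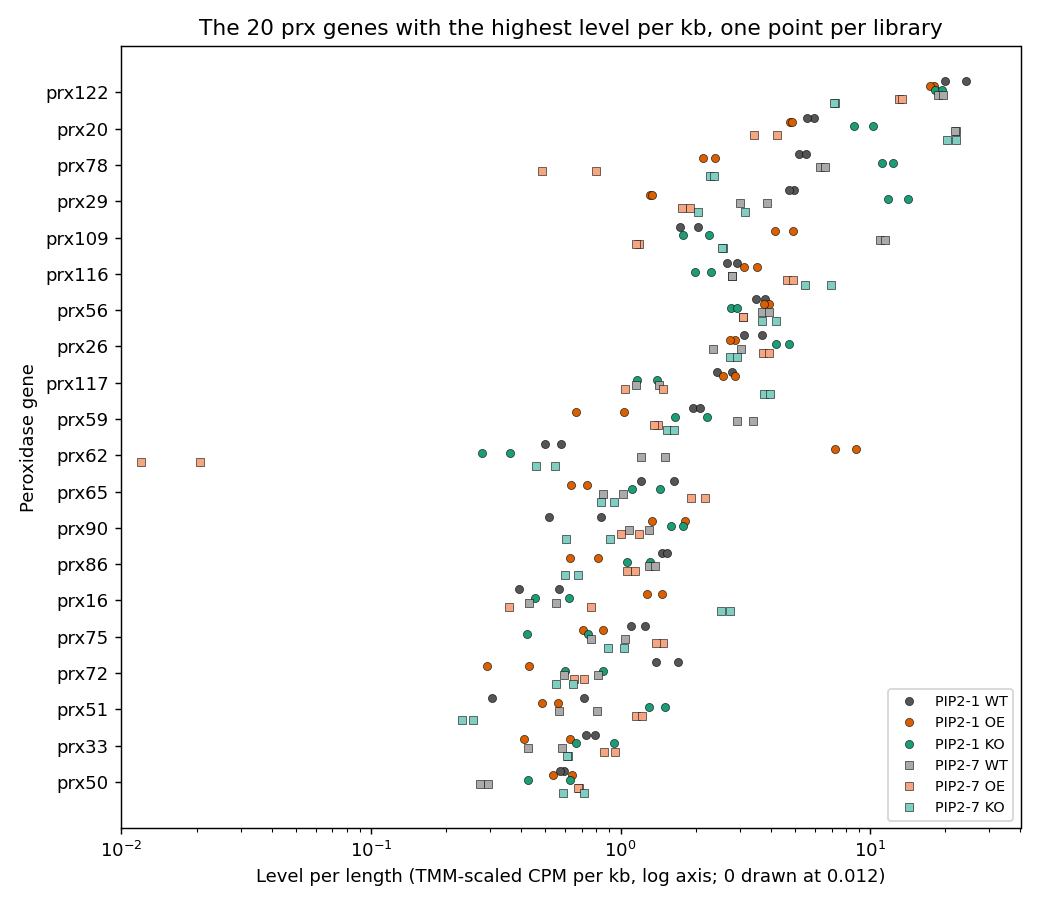
Levels of the 20 prx genes with the highest mean level per kb; the x axis is TMM-scaled CPM per kb on a log scale, each point is 1 library, and colour and shape give the group. prx122 and prx20 lie furthest right with means of 16.3 and 11.1 CPM per kb, and prx62 spreads furthest, from 0 in 1 PIP2-7 OE library to the highest values in PIP2-1 OE.

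The summed level of all 91 members was highest in PIP2-7 WT, at 136 ± 5.94 CPM (SD, n = 2), and lowest in PIP2-7 OE, at 80.9 ± 0.278 CPM. It was 110 ± 4.36 CPM in PIP2-1 WT, 103 ± 4.17 in PIP2-1 OE, 124 ± 4.62 in PIP2-1 KO and 104 ± 0.587 in PIP2-7 KO (SD, n = 2 each). With 2 libraries against 2, an exact permutation test of such a sum cannot go below a two-sided p of 0.333, so no test was made. The leading gene was not the same everywhere: prx122 held the largest part of the sum in every PIP2-1 library and in PIP2-7 OE, and prx20 did so in PIP2-7 WT and PIP2-7 KO. Among the 20 members with a mean of at least 1 CPM, 6 had their highest group mean in PIP2-1 KO and 1, prx62, in PIP2-1 OE. In leaf tissue measured in bulk, fewer cells of a type and less RNA per cell cannot be told apart.

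Across the comparisons the peroxidases changed in both directions, and the members that fell outnumbered those that rose in each of the 5 comparisons below. In PIP2-1 OE against PIP2-1 WT, 40 members were tested; 8 rose and 13 fell at an adjusted p under 0.05 (edgeR quasi-likelihood test, Benjamini-Hochberg over all genes). That is 52.5% of the tested members beside 44.1% of all 23487 genes tested. By direction, 23.2% of all genes rose and 20.9% fell there. In PIP2-1 KO, 9 of 40 rose and 11 fell, or 50% beside 62.4% of all genes, of which 30.5% rose and 31.9% fell. In PIP2-7 OE, 10 of 37 rose and 13 fell, or 62.2% beside 67.1% (33.4% rose and 33.7% fell). In PIP2-7 KO, 5 of 37 rose and 14 fell, or 51.4% beside 63.4% (32.1% rose and 31.3% fell). Between the wild types, 8 of 44 were higher in PIP2-7 WT and 13 lower, or 47.7% beside 56.6% (28.1% higher and 28.5% lower). In PIP2-7 KO 37.8% of the tested members fell and 13.5% rose. The share of members called was above that of all genes in PIP2-1 OE and below it in the other comparisons. Over these comparisons 104 calls were made, of which 60 remained in every fit that left out 1 library and 44 were lost in at least 1 such fit. Each line's comparisons with its wild type share those control libraries.

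The sizes of the changes stood further from the rest of the transcriptome. The median absolute log2 change of the tested members was 0.98 in PIP2-1 OE, 1.02 in PIP2-1 KO, 0.76 in PIP2-7 OE and 0.99 in PIP2-7 KO, beside 0.26, 0.45, 0.46 and 0.43 for all genes tested. The signed medians were -0.26, -0.20, -0.06 and -0.12 for the members, and between -0.01 and 0 for all genes. Called changes of at least 2-fold were made by 16 of 40 members in PIP2-1 OE, or 40% beside 9.40% of all genes. They were made by 16 of 40 in PIP2-1 KO (40% beside 22.0%), 14 of 37 in PIP2-7 OE (37.8% beside 22.1%) and 16 of 37 in PIP2-7 KO (43.2% beside 20.2%). Between the wild types 15 of 44 did so (34.1% beside 15.9%). The tested members were also low: their median level was 0.946 CPM in the PIP2-1 fit and 1.04 CPM in the PIP2-7 fit, where all genes tested had medians of 10.9 and 10.7 CPM. The part of level in these sizes was not tested.

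**Figure D2:**
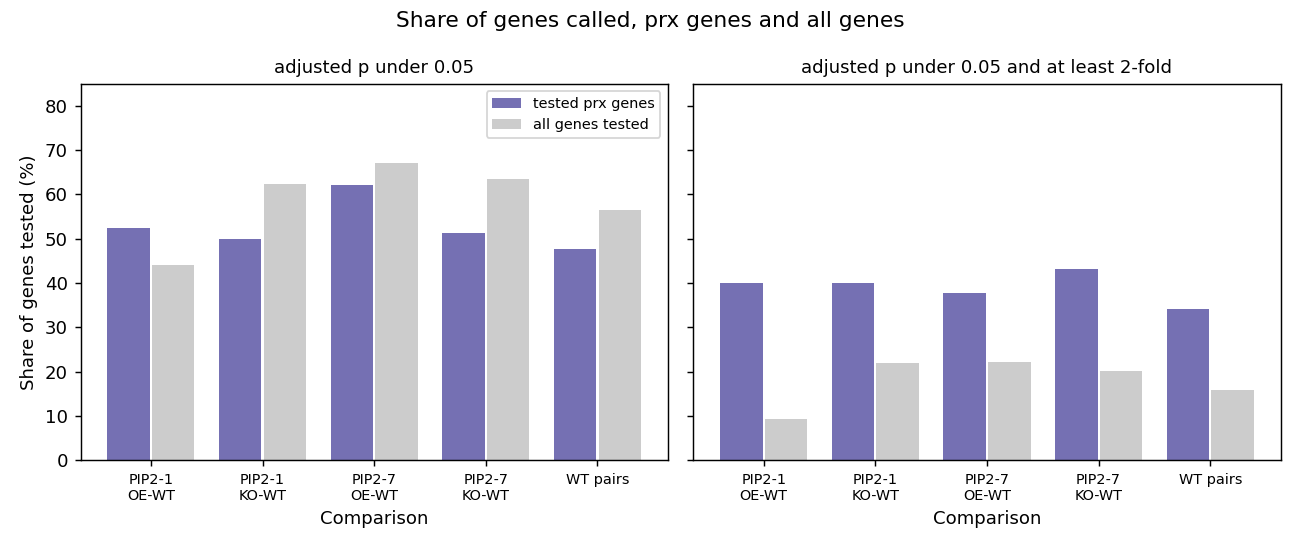
Share of genes called at an adjusted p under 0.05 (left) and called with a change of at least 2-fold (right), in percent of the genes tested, for prx genes and for all genes in each comparison. The left share of prx genes is the higher one in PIP2-1 OE (52.5% beside 44.1%) and the lower one elsewhere, as in PIP2-1 KO (50% beside 62.4%). The right shares of prx genes are the higher ones in every comparison, as at 40% beside 9.40% in PIP2-1 OE.

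**Figure D3:**
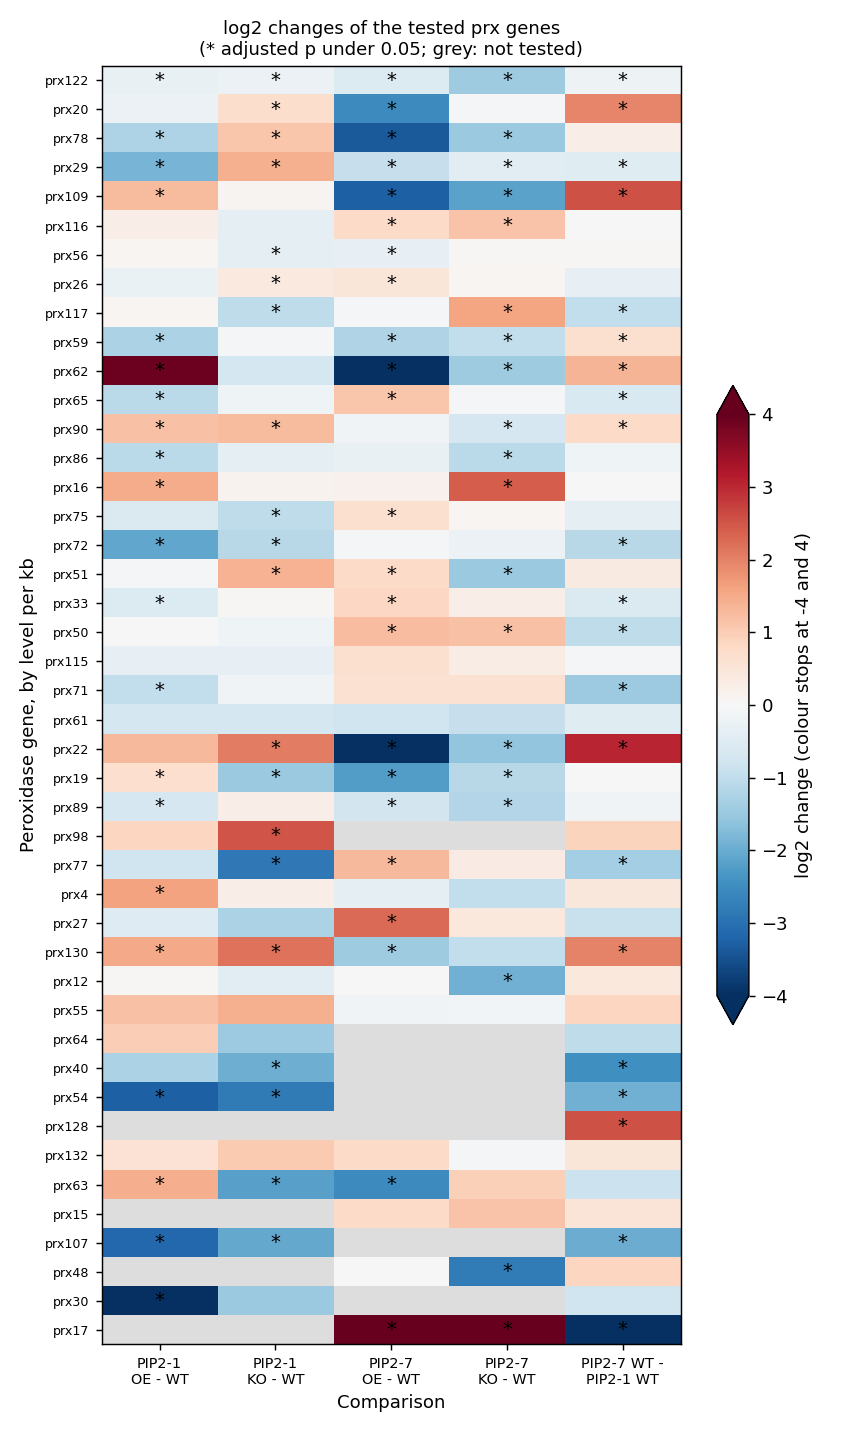
log2 changes of the 44 prx genes tested in at least 1 comparison, ordered from top to bottom by level per kb; columns are the comparisons, red is higher and blue lower in the first-named group, a star marks an adjusted p under 0.05 and grey a gene not tested. Red and blue are mixed in each column, from 8 rises and 13 falls in PIP2-1 OE to 5 rises and 14 falls in PIP2-7 KO.

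The most abundant member, prx122, was lower in both altered lines of each experiment. It read 34.1 and 28.1 CPM in PIP2-1 WT, 25.4 and 24.5 CPM in PIP2-1 OE, and 25.7 and 27.3 CPM in PIP2-1 KO. In the other experiment it read 26.4 and 27.6 CPM in PIP2-7 WT, 18.5 and 18.9 CPM in PIP2-7 OE, and 10.2 and 10.1 CPM in PIP2-7 KO. The PIP2-7 KO libraries were the lowest of all 12, and neither PIP2-7 line overlapped its wild type. The fall was 1.41 ± 0.08 on the log2 scale in PIP2-7 KO (SE; edgeR adjusted p = 1.58e-20), and prx122 fell by 0.55 ± 0.07 in PIP2-7 OE (edgeR adjusted p = 3.67e-09). PIP2-7 KO was also below PIP2-7 OE, the difference of OE minus KO being 0.87 ± 0.08 (edgeR adjusted p = 1.08e-12). In PIP2-1 OE it fell by 0.31 ± 0.08 and in PIP2-1 KO by 0.22 ± 0.08, but these calls rested on 1 wild-type library. Without PIP2-1 WT replicate 1 the log2 changes were -0.17 and -0.0887 with edgeR adjusted p of 0.108 and 0.4, and without PIP2-1 KO replicate 1 the knockout change was -0.17 (edgeR adjusted p = 0.125).

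In PIP2-1 OE the largest rise among members of at least 5 CPM in the higher group was that of prx62. This gene (Os04g0688500) lies on chromosome 4 (35215245 to 35216755, 2 exons, minus strand) and reached 5 CPM only in PIP2-1 OE. It read 0.796 and 0.688 CPM in PIP2-1 WT, 12.1 and 10 CPM in PIP2-1 OE, and 0.498 and 0.385 CPM in PIP2-1 KO. The overexpressor libraries stood above every other library of the series. The rise over PIP2-1 WT was 3.91 ± 0.19 on the log2 scale, or 15-fold (edgeR adjusted p = 6.9e-19), and the value for PIP2-1 KO was -0.71 ± 0.36 (edgeR adjusted p = 0.0875). Against the wild type of the other experiment the PIP2-1 OE change of prx62 was 2.55.

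A second rise in PIP2-1 OE was that of prx109, from 2.12 and 2.50 CPM in PIP2-1 WT to 6.04 and 5.11 CPM in PIP2-1 OE. The change was 1.25 ± 0.17 (edgeR adjusted p = 2.25e-07). Its level in PIP2-7 WT, at 13.5 and 14.1 CPM, was higher still, and against that wild type the change of PIP2-1 OE was -1.31. The direction for prx109 thus depended on which wild type served as the reference. Among lower genes, chosen after their values were seen, prx16 rose from a mean of 0.647 to 1.85 CPM (log2 change 1.47 ± 0.31) and prx4 from 0.431 to 1.27 CPM (1.61 ± 0.40).

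The falls in PIP2-1 OE included prx29, prx78 and prx59. prx29 read 6.14 and 5.86 CPM in PIP2-1 WT and 1.62 and 1.65 CPM in PIP2-1 OE, a log2 change of -1.87 ± 0.16 (edgeR adjusted p = 4.67e-12). prx78 read 6.90 and 7.31 CPM in PIP2-1 WT and 2.84 and 3.16 CPM in PIP2-1 OE, a change of -1.25 ± 0.14 (edgeR adjusted p = 1.29e-09). prx59 read 2.92 and 3.11 CPM in PIP2-1 WT and 1.55 and 0.987 CPM in PIP2-1 OE, a change of -1.26 ± 0.23 (edgeR adjusted p = 2.52e-05). No library of the overexpressor reached its wild type for these 3 genes. They were also lower against the wild type of the other experiment, with changes of -1.37, -1.51 and -1.90. prx72, chosen after its values were seen, fell from a mean of 2.1 to 0.489 CPM (-2.08 ± 0.32).

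prx29 and prx78 moved the opposite way in the OsPIP2-1 knockout. prx29 read 17.6 and 14.6 CPM in PIP2-1 KO, the 2 highest values of the series, with a change from PIP2-1 WT of 1.43 ± 0.12 (edgeR adjusted p = 1.1e-12). prx78 read 14.8 and 16.3 CPM in PIP2-1 KO, again the highest of the series, with a change of 1.12 ± 0.11 (edgeR adjusted p = 1.06e-10). Overexpressor and knockout did not overlap with each other or with the wild type between them. Tested directly, PIP2-1 OE was below PIP2-1 KO by -3.30 ± 0.14 for prx29 (edgeR adjusted p = 1.13e-20) and by -2.37 ± 0.13 for prx78 (edgeR adjusted p = 3.22e-18). The knockout rises were also present against the wild type of the other experiment, at 1.92 and 0.86.

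A pair of lower members had the reverse order, with both comparisons sharing the same wild-type libraries. prx19 averaged 1.13 CPM in PIP2-1 WT, 1.79 CPM in PIP2-1 OE and 0.395 CPM in PIP2-1 KO, with changes of 0.68 and -1.49. prx63 averaged 0.342, 0.888 and 0.0769 CPM in the same order, with changes of 1.44 and -2.17. These members were chosen after their values were seen, and several of their calls depended on single libraries. The overexpressor call of prx19 was lost without any 1 of the 4 PIP2-1 WT and PIP2-1 OE libraries, its change then lying between 0.56 and 0.79. The overexpressor call of prx63 was lost without PIP2-1 WT replicate 2 (0.96), PIP2-1 OE replicate 1 (1.51) or PIP2-1 OE replicate 2 (1.35). Its knockout call was lost without PIP2-1 WT replicate 1 (-1.68) or PIP2-1 KO replicate 1 (-1.06). prx90, also chosen after its values were seen, averaged 1.09 CPM in PIP2-1 WT and was higher in both lines, at 2.54 CPM in PIP2-1 OE (1.17 ± 0.25) and 2.73 CPM in PIP2-1 KO (1.27 ± 0.26). Against PIP2-7 WT neither prx90 change was called (0.40 and 0.50, edgeR adjusted p = 0.141 and 0.0741).

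Further members changed in PIP2-1 KO. prx20 read 8.30 and 7.77 CPM in PIP2-1 WT and 12 and 14.3 CPM in PIP2-1 KO, a change of 0.70 ± 0.11 (edgeR adjusted p = 1.89e-06), but against PIP2-7 WT the change was -1.23. prx117 (Os08g0113000, chromosome 8) read 3.90 and 3.39 CPM in PIP2-1 WT and 1.62 and 1.96 CPM in PIP2-1 KO, a change of -1.02 ± 0.20 (edgeR adjusted p = 4.24e-05), and against PIP2-7 WT it was -0.02. prx56 fell by 0.36 ± 0.10 and prx26 rose by 0.40 ± 0.16. The last 2 calls depended on single libraries: without PIP2-1 WT replicate 2 the changes were -0.30 for prx56 and 0.27 for prx26, and without PIP2-1 KO replicate 2 prx26 was at 0.32, none of them with an edgeR adjusted p under 0.05. prx98, a low member chosen after its values were seen, rose from a mean of 0.33 to 1.94 CPM (2.50 ± 0.39).

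**Figure D4:**
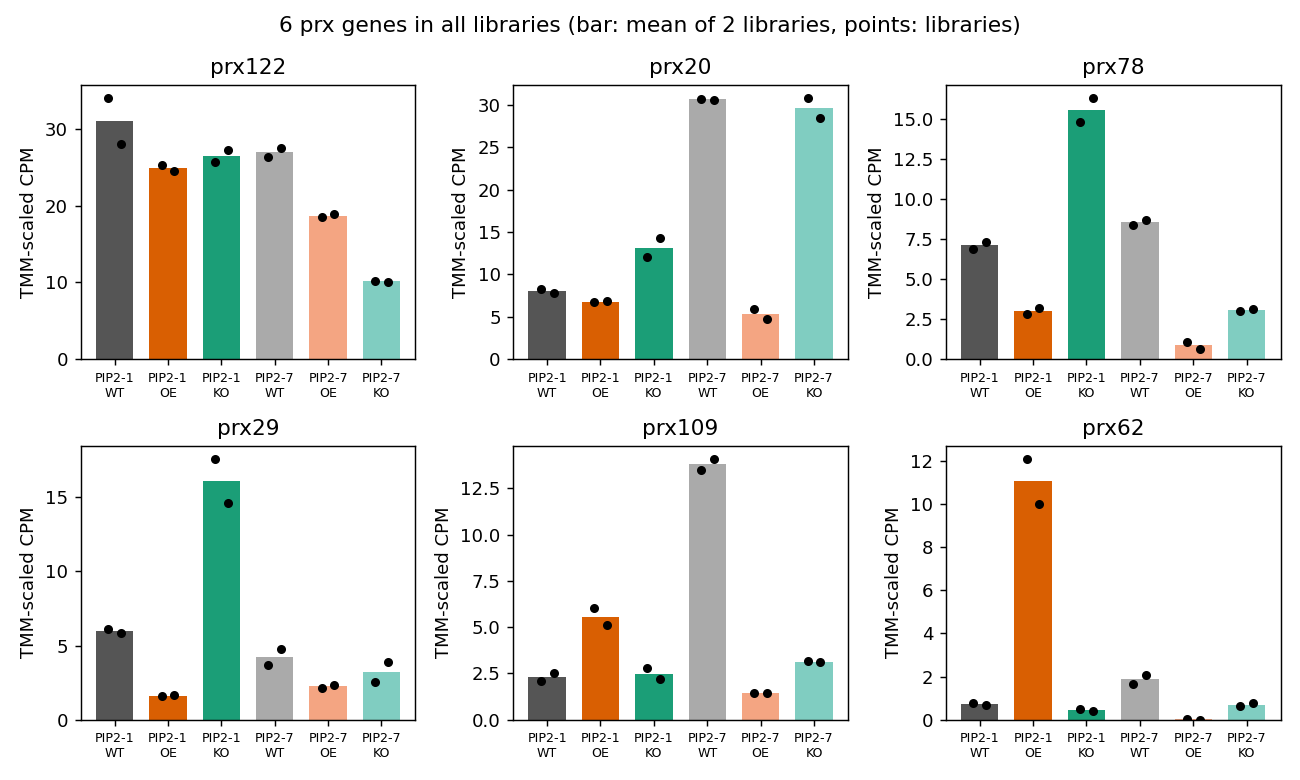
TMM-scaled CPM of 6 prx genes in all libraries; each bar is the mean of a group, each point a library, and every axis starts at 0. prx29 and prx78 peak in PIP2-1 KO, near 16.1 and 15.5 CPM, prx62 in PIP2-1 OE at 11.1 CPM, prx109 in PIP2-7 WT at 13.8 CPM, and prx20 in PIP2-7 WT and PIP2-7 KO at 30.6 and 29.6 CPM.

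In PIP2-7 OE the abundant members mostly fell. prx20 read 30.7 and 30.6 CPM in PIP2-7 WT and 5.91 and 4.76 CPM in PIP2-7 OE, a change of -2.55 ± 0.09 (edgeR adjusted p = 4.98e-28). prx78 read 8.37 and 8.71 CPM in PIP2-7 WT and 1.06 and 0.642 CPM in PIP2-7 OE, a change of -3.36 ± 0.19 (edgeR adjusted p = 2.74e-20). prx109 read 13.5 and 14.1 CPM in PIP2-7 WT and 1.46 and 1.42 CPM in PIP2-7 OE, a change of -3.28 ± 0.14 (edgeR adjusted p = 3.05e-24). For all 3 genes the PIP2-7 OE libraries were the lowest of the series. Against PIP2-1 WT these changes were -0.59 for prx20, -3.07 for prx78 and -0.70 for prx109, since PIP2-1 WT itself held prx20 at 8.03 and prx109 at 2.31 CPM.

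prx62 nearly disappeared in PIP2-7 OE. It read 1.67 and 2.08 CPM in PIP2-7 WT and 0.0285 and 0 CPM in PIP2-7 OE, or 126 counts against 1 count. The ratio of counts per library size was 136, with a 95% exact interval of 24.0 to 5430 that covers counting error only. The fitted change of -6.77 moved between -9.03 and -5.89 when single libraries were left out, and the call remained in each such fit. In PIP2-7 KO prx62 fell less (-1.43), and against PIP2-1 WT the knockout change was -0.07 (edgeR adjusted p = 0.871). prx22, a neighbour of prx20 on chromosome 1, was chosen after its values were seen. It had 97 counts in PIP2-7 WT and 2 counts in PIP2-7 OE, a ratio of 52.5 with an interval of 14.1 to 439. Against PIP2-1 WT, which held 11 counts of prx22, the PIP2-7 OE change was -2.48 (edgeR adjusted p = 0.0354).

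Smaller falls in PIP2-7 OE were those of prx59, prx29 and prx56. prx59 read 4.37 and 5.05 CPM in PIP2-7 WT and 2.11 and 2.03 CPM in PIP2-7 OE (-1.21 ± 0.18, edgeR adjusted p = 7.79e-08). prx29 read 3.72 and 4.76 CPM in PIP2-7 WT and 2.17 and 2.35 CPM in PIP2-7 OE (-0.93 ± 0.19, edgeR adjusted p = 3.52e-05). prx56, the steadiest of the abundant members, ranged over the groups from a mean of 10.1 to 14 CPM and fell by 0.32 ± 0.09. Rises were made by prx116, a single-exon gene on chromosome 7 (Os07g0694300), and by prx26. prx116 read 3.04 and 3.03 CPM in PIP2-7 WT and 5.02 and 5.32 CPM in PIP2-7 OE (0.75 ± 0.15, edgeR adjusted p = 3.93e-05). The rise of prx26, 0.49 ± 0.16, lost its call without PIP2-7 WT replicate 2 (0.30, edgeR adjusted p = 0.168). Among low members chosen after their values were seen, prx27 rose from a mean of 0.267 to 1.34 CPM (2.28 ± 0.41).

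In PIP2-7 KO the falls again outnumbered the rises. Apart from prx122, prx78 fell to 3.02 and 3.15 CPM (-1.47 ± 0.15, edgeR adjusted p = 8.07e-12) and prx109 to 3.16 and 3.12 CPM (-2.14 ± 0.12, edgeR adjusted p = 1.48e-19). prx59 fell to 2.30 and 2.45 CPM (-0.99 ± 0.17, edgeR adjusted p = 2.94e-06). No knockout library of these genes overlapped the wild type, but against PIP2-1 WT the prx59 change was -0.35 (edgeR adjusted p = 0.154). prx20 stayed near its wild type at 30.8 and 28.4 CPM, with a change of -0.06 ± 0.07 (edgeR adjusted p = 0.491). For prx29, at 2.53 and 3.91 CPM, the knockout overlapped the wild type, and its call at -0.41 ± 0.18 was lost without PIP2-7 WT replicate 2 (-0.22) and without PIP2-7 KO replicate 1 (-0.13). Against PIP2-1 WT, prx109 was higher in PIP2-7 KO by 0.43, so its fall held only against its own wild type.

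The rises in PIP2-7 KO were prx16, prx116, prx117, prx50 and prx17. prx117 went from 1.61 and 1.99 CPM in PIP2-7 WT to 5.24 and 5.54 CPM in PIP2-7 KO (1.57 ± 0.19, edgeR adjusted p = 5.9e-10), and was 0.58 above PIP2-1 WT. prx116 went to 7.54 and 5.92 CPM (1.14 ± 0.15, edgeR adjusted p = 6.08e-09), its highest values of the series. prx16, chosen after its values were seen, went from 0.744 and 0.577 CPM to 3.42 and 3.70 CPM (2.43 ± 0.27, edgeR adjusted p = 1.47e-10). prx17 had no count in PIP2-7 WT and 41 counts in PIP2-7 KO, at least 13.3-fold higher when the wild type is set to a floor of 3 counts over the group. PIP2-7 OE had 7 counts of prx17. PIP2-1 WT had 13, and against that wild type the PIP2-7 KO change of prx17 was 1.59 (edgeR adjusted p = 0.0433). The rise of prx50, 1.18, lost its call without PIP2-7 KO replicate 2 (1.03, edgeR adjusted p = 0.0621) and against PIP2-1 WT (0.16, edgeR adjusted p = 0.725).

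Overexpressor and knockout were also compared without the wild type. In the OsPIP2-7 experiment 10 members were higher in PIP2-7 OE than in PIP2-7 KO and 13 lower, 62.2% of 37 beside 58.0% of all genes (28.4% higher and 29.6% lower). Of the first 10 members by level per kb, prx20 differed most, lower in the overexpressor by -2.49 ± 0.09 (edgeR adjusted p = 2.32e-27), and prx78 was lower there by -1.88 ± 0.22 (edgeR adjusted p = 5.26e-10). prx117 was lower in the overexpressor by -1.62 ± 0.18 (edgeR adjusted p = 2.49e-10). prx51, chosen after its values were seen, averaged 1.61 CPM in PIP2-7 OE and 0.333 CPM in PIP2-7 KO, a difference of 2.25 ± 0.35 (edgeR adjusted p = 5.17e-07). In the PIP2-1 experiment 11 members were higher in the overexpressor than in the knockout and 13 lower, 60% of 40 beside 55.5% of all genes (28.7% higher and 26.8% lower).

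The wild-type pairs differed for several of these genes. PIP2-7 WT exceeded PIP2-1 WT for prx109 by 2.56 ± 0.15 (edgeR adjusted p = 6.38e-22), for prx20 by 1.94 ± 0.09 (edgeR adjusted p = 1.94e-25) and for prx62 by 1.36 ± 0.27 (edgeR adjusted p = 1.98e-05). It was lower for prx117 by -1.0 ± 0.20 (edgeR adjusted p = 2.39e-05). prx78, at 0.26 ± 0.12 (edgeR adjusted p = 0.0701), and prx116, at 0.01 ± 0.18 (edgeR adjusted p = 0.97), did not pass the test. The labels give both pairs the same variety, tissue and age, and what else differed between them cannot be told apart from the experiment. The count of called members was lower in every fit that left out 1 of these wild-type libraries, and lowest without PIP2-7 WT replicate 1.

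Each line was therefore also set against the other experiment's wild type. Of the 21 members called in PIP2-1 OE, 11 were called in the same direction there, 1 in the opposite direction and 9 not at all. In PIP2-1 KO these numbers were 7, 2 and 11 of 20, in PIP2-7 OE 16, 0 and 7 of 23, and in PIP2-7 KO 11, 2 and 6 of 19. Of all genes called in the same comparisons, 36.8% kept direction and call in PIP2-1 OE, 46.4% in PIP2-1 KO, 52.7% in PIP2-7 OE and 47.3% in PIP2-7 KO, and 27.6%, 11.9%, 11.9% and 12.7% were called in the opposite direction. The members' shares that kept direction and call were 52.4%, 35%, 69.6% and 57.9%. Among the abundant members, prx78 kept its direction and call against both wild types in all 4 lines. So did prx29, although its PIP2-7 KO call depended on single libraries. prx122 did so in both PIP2-7 lines, with changes against PIP2-1 WT of -0.72 in the overexpressor and -1.60 in the knockout. prx116 did so as well, at 0.78 and 1.16. For prx20 and prx109 the size or the direction differed between the references, as given above.

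Chlorophyll breakdown and photosynthesis markers moved with the groups too. The summed level of 6 matched senescence genes ranged from 1330 to 1390 CPM in PIP2-1 WT, 610 to 611 in PIP2-1 OE, 503 to 520 in PIP2-1 KO, 529 to 546 in PIP2-7 WT, 1630 to 1690 in PIP2-7 OE and 1660 to 1680 in PIP2-7 KO. The 4 matched mesophyll genes summed to 6440 to 6660 CPM in PIP2-1 WT, 12700 to 12900 in PIP2-1 OE, 20900 to 22400 in PIP2-1 KO, 14100 to 14500 in PIP2-7 WT, 8300 to 8320 in PIP2-7 OE and 6850 to 6970 in PIP2-7 KO. Mean prx20 levels over the groups in the same order were 8.03, 6.74, 13.1, 30.6, 5.33 and 29.6 CPM. Not every marker followed its sum. The mesophyll gene RbcS5 rose in PIP2-7 OE (1.85) and PIP2-7 KO (1.25), where RbcS3, PsbO and LHCB fell. RbcS5 was also lower in PIP2-7 WT than in PIP2-1 WT (-0.75), where those genes were higher. The senescence gene NOL rose in PIP2-1 KO (0.61), where the other matched senescence genes fell. A pair of matched secondary-wall cellulose synthase genes, which mark lignifying vascular tissue, summed to at most 2.77 CPM in any library. Their sum was highest in PIP2-1 KO, where OsCesA4 averaged 2.25 CPM. CESA7 was highest in PIP2-7 OE, at 0.478 CPM beside 0.444 CPM in PIP2-1 KO. Of the root markers, NRT2.1 was at 0 in every library of both wild types and both PIP2-1 lines. The part of these markers in the peroxidase changes was not tested.

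Many members lie beside each other: 52 of the 91 fell into 17 runs with gaps of at most 50 kb, the largest holding 7 genes. Reads that map to several places were counted at each place, so near-identical neighbours could share counts, and their values are uncertain to that extent. In the chromosome 4 run from prx59 to prx64 (35187443 to 35246736, all on the minus strand) neighbours did not move as a block. In PIP2-1 OE, prx62 rose 15-fold and prx63 rose (1.44), while prx59 fell (-1.26) and prx61, at 0.626 against 1.01 CPM, was not called. In PIP2-7 OE, prx59, prx62 and prx63 all fell. prx63 had 2 counts there against 12 in PIP2-7 WT, a ratio of 6.49 with an exact interval of 1.45 to 59.7, and without PIP2-7 WT replicate 2 its change was -0.18. On chromosome 2, the neighbours prx29 and prx30 both fell in PIP2-1 OE, prx30 from 26 counts to 1.

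On chromosome 7, prx109 and prx115 flank 5 more peroxidase genes that carry POX names and so are not counted among the 91. Over the 12 libraries POX5.1 averaged 11.5 and POX22.3 7.33 CPM per kb, beside 11.1 for prx20 and 4.79 for prx78. POX5.1 averaged 36.4 CPM in PIP2-1 KO, where prx122 averaged 26.5 CPM. The levels, ranking and sums given above leave the POX genes out. POX22.3 and POX8.1 are known in rice for induction by the bacterial blight pathogen Xanthomonas. POX22.3 (Os07g0677200) read 3.33 and 3.13 CPM in PIP2-1 WT, 22.4 and 21.6 in PIP2-1 OE, 2.80 and 3.31 in PIP2-1 KO, 13.9 and 13.6 in PIP2-7 WT, 0.628 and 0.401 in PIP2-7 OE, and 15.7 and 13.7 in PIP2-7 KO. It thus rose in PIP2-1 OE (2.77 ± 0.12, edgeR adjusted p = 5.64e-21) and fell in PIP2-7 OE (-4.76 ± 0.17, edgeR adjusted p = 3.08e-27), as prx109 and prx62 did. In PIP2-7 KO POX22.3 was not called (0.09), whereas prx109 (-2.14) and prx62 (-1.43) fell. POX5.1 rose in PIP2-1 OE (0.64) and more in PIP2-1 KO (2.17), and fell in PIP2-7 OE (-2.70) and PIP2-7 KO (-1.18). POX8.1 had changes of 0.70, 2.43, -3.16 and -1.29 in the same order, all called. The wild types differed for both genes. POX8.1 averaged 1.39 CPM in PIP2-1 WT and 5.24 CPM in PIP2-7 WT, and POX5.1 averaged 8.08 and 22.6 CPM. The PIP2-1 OE means, 2.22 CPM for POX8.1 and 12.7 CPM for POX5.1, lay below PIP2-7 WT. Their PIP2-7 KO means lay above PIP2-1 WT. The direction in those lines thus depended on the reference, while PIP2-1 KO means stayed above and PIP2-7 OE means below either wild type. prx115, at group means of 0.485 to 0.95 CPM, was called in none of these comparisons.

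**Figure D5:**
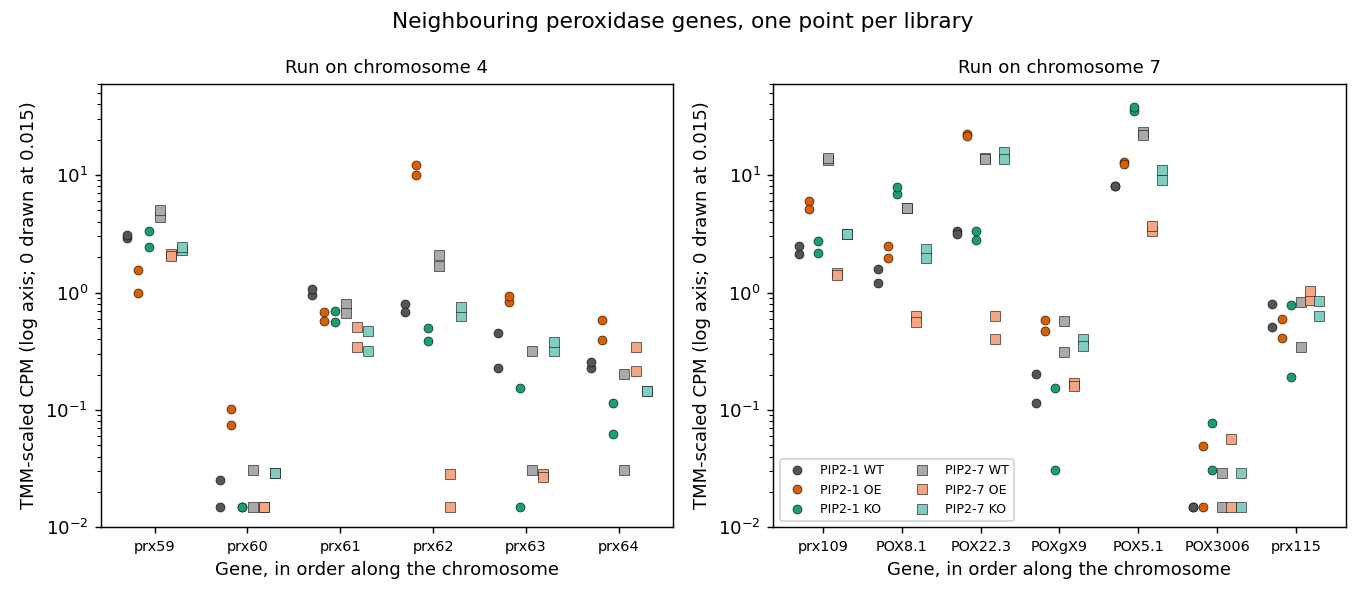
TMM-scaled CPM (log axis, 0 drawn at 0.015) of neighbouring peroxidase genes on chromosome 4 (left) and chromosome 7 (right), in order along the chromosome, 1 point per library. prx62 reaches 12.1 CPM in PIP2-1 OE and 0 in PIP2-7 OE, and prx109, POX8.1, POX22.3 and POX5.1 are lowest in PIP2-7 OE while prx115 stays near 0.5 to 1 CPM in most libraries.

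Other genes that make, use or remove hydrogen peroxide were followed by name. Their counts stand beside the shares of all genes called, which were 44.1% in PIP2-1 OE, 62.4% in PIP2-1 KO, 67.1% in PIP2-7 OE and 63.4% in PIP2-7 KO, split nearly evenly between rises and falls. Of 8 NADPH oxidases tested, which feed the apoplast with superoxide, 4 rose and 3 fell in PIP2-1 OE, 3 and 4 in PIP2-1 KO, 3 and 4 in PIP2-7 OE, and 4 and 3 in PIP2-7 KO. RbohF went from 10.3 to 48.3 CPM in PIP2-1 OE (2.24 ± 0.09) and to 2.16 CPM in PIP2-1 KO (-2.27 ± 0.15). It went from 2.82 CPM in PIP2-7 WT to 0.539 CPM in PIP2-7 OE (-2.40 ± 0.22) and 32.3 CPM in PIP2-7 KO (3.51 ± 0.11). RbohF was lower in PIP2-7 WT than in PIP2-1 WT (-1.86 ± 0.13), and its PIP2-1 KO mean lay near that of PIP2-7 WT. Of 8 ascorbate peroxidases, which remove hydrogen peroxide inside the cell, 7 rose and 1 fell in PIP2-1 KO, while 2 rose and 5 fell in each PIP2-7 line; 3 rose and 2 fell in PIP2-1 OE. APX8, a chloroplast form, rose in PIP2-1 OE (0.85 ± 0.04) and PIP2-1 KO (2.34 ± 0.04). It fell in PIP2-7 OE (-2.26 ± 0.03) and PIP2-7 KO (-2.11 ± 0.03). Its wild types differed, at 139 CPM in PIP2-1 WT and 345 CPM in PIP2-7 WT (1.31 ± 0.03). Of 7 superoxide dismutases, 4 rose and 2 fell in PIP2-1 OE, 4 and 1 in PIP2-1 KO, 1 and 6 in PIP2-7 OE, and 0 and 5 in PIP2-7 KO. Between the wild types, 6 superoxide dismutases were higher in PIP2-7 WT and 0 lower, where 28.1% of all genes were higher and 28.5% lower. For ascorbate peroxidases 4 were higher there and 1 lower, and for NADPH oxidases 1 and 4.

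Of 3 catalases, none rose and 2 fell in PIP2-1 OE, 1 rose and 2 fell in PIP2-1 KO, and 2 rose and 1 fell in each PIP2-7 line. CATB had changes of -0.66, -0.71, 0.78 and 0.71 in PIP2-1 OE, PIP2-1 KO, PIP2-7 OE and PIP2-7 KO, and OsCatB of -0.42, -0.69, 0.67 and 0.75, all called. CATC rose in PIP2-1 KO (0.45 ± 0.07) and fell in PIP2-7 OE (-1.35 ± 0.03) and PIP2-7 KO (-1.21 ± 0.03). The wild types differed for all 3 catalases. CATC was higher in PIP2-7 WT, at 2140 CPM against 1390 CPM in PIP2-1 WT, while CATB (-0.32) and OsCatB (-0.39) were lower in PIP2-7 WT. Of 5 glutathione peroxidases, 2 rose in each line and 3, 2, 3 and 3 fell in PIP2-1 OE, PIP2-1 KO, PIP2-7 OE and PIP2-7 KO. Monolignol synthesis genes make the phenolic substrates of lignin. Of 49 tested in the PIP2-1 experiment, 16 rose and 11 fell in PIP2-1 OE, and 15 rose and 21 fell in PIP2-1 KO. Of 47 tested in the other, 16 rose and 15 fell in PIP2-7 OE, and 27 rose and 14 fell in PIP2-7 KO, where 32.1% of all genes rose and 31.3% fell. Their medians were 0.06, -0.11, 0 and 0.33 on the log2 scale. GH2, a cinnamyl alcohol dehydrogenase, rose from 10.7 to 58.1 CPM in PIP2-1 OE (2.44 ± 0.08) and from 1.63 to 51.0 CPM in PIP2-7 KO (4.96 ± 0.10). GH2 was lower in PIP2-7 WT than in PIP2-1 WT (-2.71 ± 0.13). By p-value, 4CL3 (1.86) and OsHCT1 (1.10) rose beside GH2 in PIP2-1 OE. The first 3 in PIP2-1 KO all fell: OsCAD3 (-1.67), CCR1 (-1.0) and HCT3 (-1.43). In PIP2-7 KO, OsCCR29 (-2.08) and OsCAD8C (-1.36) fell. In PIP2-7 OE, OsCAD8C (-1.36) and OsCAD8B (-1.19) fell and OsCAD3 rose (1.36). Of 25 laccases, the other enzymes that polymerise lignin, at most 3 passed the filter, with 2 rises and 1 fall in PIP2-1 OE, 1 and 1 in PIP2-1 KO, no call in PIP2-7 OE and 1 rise in PIP2-7 KO.

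The authors' deposited tables marked fewer members as significant: 12 in PIP2-1 OE, 8 in PIP2-1 KO, 12 in PIP2-7 OE and 11 in PIP2-7 KO. Of these, 11, 7, 12 and 11 were also called by edgeR. In the authors' deposited tables prx26 was significant in PIP2-1 OE and prx116 in PIP2-1 KO, where edgeR gave adjusted p of 0.183 and 0.0931. Among the edgeR calls that the authors did not mark was prx62 in PIP2-7 OE, with a log2 change of -6.58 in their table. Their log2 changes of prx50 were 0.06 in PIP2-7 OE and -0.17 in PIP2-7 KO, where edgeR gave 1.22 and 1.18.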

How the data were processed

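RNA from leaves was sequenced in 12 libraries, 6 groups of 2. Trim Galore, HISAT2, featureCounts, Cufflinks and Cuffdiff 2.2.1 are named with IRGSP-1.0 in the submitters' processing notes. The deposited count table holds whole-number counts per gene, made by the authors with featureCounts 1.4.0 on Ensembl Plants release 52 with reverse-strand, single-end counting, per the file headers. Multi-mapped reads were counted at each place and reads over several genes were not counted, per the file headers. The deposited Cuffdiff tables gave gene names, log2 fold changes and the authors' significance marks.

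From the counts, edgeR 4.0.16 (R 4.3.3, limma 3.58.1) was run with filterByExpr, TMM scaling and the robust quasi-likelihood F test. Each experiment was fitted on its 6 libraries, and the wild-type pairs on all 12. P-values were adjusted by Benjamini-Hochberg over all genes tested, with a threshold of 0.05. The scripts were tested on simulated data. Standard errors are the log2 change divided by the root of F and so approximate. Levels are CPM on 1 TMM scale. The biological coefficient of variation was 3.69% and 2.75% in the experiments' fits.

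Counts of replicate libraries differed by more than sampling noise, with a chi-square of 2.42 to 7.24 times its degrees of freedom. Same-numbered libraries did not deviate together (correlations of -0.082 to 0.032), so replicate numbers pair no samples. Members, lists and tests were chosen with earlier results of these data known. Genes were named by level per kb (the first 10), and by size of change among called genes without overlap. The latter needed at least 5 CPM in the higher group, so a gene could qualify through the group where it was high. Up to 5 were taken in each direction per line, and 4 for the wild types and for opposite calls. Pathway lists gave up to 3 each by p-value. Others are marked in the text, apart from genes given to complete a list or a run of neighbours, such as prx17, prx50, prx61, prx30 and prx115. Intervals and floors cover counting error only. Alternatives were RLE scaling, no filter, DESeq2 1.42.0, 1 fit over both experiments, a replicate block, other wild-type references and leaving out each library.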

Additional observations from a re-analysis of the deposited data

How the results depend on the processing

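With RLE scaling all 104 called values kept their direction and call, and without the filter on low counts 99 did. DESeq2 kept 74 and lost 30; it called 15 members instead of 23 in PIP2-7 OE and 14 instead of 23 in PIP2-7 OE against KO, and 14 instead of 21 between the wild types. The cause was not tested. With the replicate block the counts of called members were 18, 20, 23, 19, 21, 24 and 22 for PIP2-1 OE, PIP2-1 KO, PIP2-7 OE, PIP2-7 KO, the wild types, PIP2-1 OE against KO and PIP2-7 OE against KO. Leaving out single libraries gave 14 to 16, 16 to 20, 18 to 24, 17 to 19, 13 to 18, 18 to 21 and 16 to 21 in that order.

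With all 4 wild-type libraries as the reference, 8 members were called in PIP2-1 OE instead of 21, 8 in PIP2-1 KO instead of 20, and 9 in PIP2-7 KO instead of 19. Against the other experiment's wild type, signs turned in PIP2-1 OE for prx33 (0.0384), prx71 (0.48), prx109 (-1.31) and prx130 (-0.46), and in PIP2-1 KO for prx20 (-1.23), prx22 (-1.02), prx40 (0.49) and prx72 (0.0219). They turned in PIP2-7 OE for prx17 (-0.99), prx77 (-0.0469) and prx130 (0.59), and in PIP2-7 KO for prx22 (1.47), prx90 (0.11) and prx109 (0.43). With all 4 wild types they turned for prx109 in PIP2-1 OE (-0.53), prx20 (-0.56) and prx22 (-0.19) in PIP2-1 KO, and prx17 in PIP2-7 OE (-0.00311). Members at 1 TMM-scaled CPM rested on 26 to 40.5 counts in a library.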
